A study of Homo sapiens with 10 samples.

Results

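The Kruppel-like factor (KLF) genes described here are KLF2, KLF3, KLF4, KLF5, KLF6, KLF7, KLF9, KLF10, KLF11 and KLF12, matched in the files by symbol, 10 of the 26485 genes listed. They were measured by RNA-seq of polyadenylated RNA in SW480, an established human colorectal adenocarcinoma line whose genotype the labels give as WT. Fluorescence-activated sorting for ROBO1, a receptor of the cell surface, gave a positive population, labelled SW480-CBC, and a negative population, labelled SW480-RSC. They are called ROBO1pos and ROBO1neg here, with 5 libraries each, and ROBO1pos against ROBO1neg is the comparison that follows from the design. Both come from the same line in the same serum-containing medium, no treatment is named, and the sorted cells went directly to bulk sequencing. Whether replicates are separate cultures is not stated in the labels: p-values here cover the spread between these libraries alone, which may be technical.

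Kruppel-like factors bind GC-rich and CACCC sequences through zinc fingers at the C terminus, which are much alike between members, while the N terminus differs and sets whether a member activates or represses. KLF2, KLF4, KLF5, KLF6 and KLF7 have N termini that can activate transcription, KLF3 and KLF12 recruit the co-repressor CTBP, and KLF9, KLF10 and KLF11 recruit the co-repressor SIN3A. In the intestine KLF5 is known from the dividing cells of the crypt and KLF4 from the differentiated cells above them.

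Libraries held 23228686 to 29539100 counts on genes, and between 25 and 6364 counts lay behind each member in each library. Levels are in CPM, counts relative to the library size after scaling by the trimmed mean of M-values (TMM), as mean ± SD over 5 libraries per group. Log2 fold changes are ROBO1pos minus ROBO1neg, from edgeR's quasi-likelihood test on all 14932 genes that passed its filter on low counts, and "adjusted p" is the Benjamini-Hochberg value over all of these. ROBO1, the sorting receptor, was at 430 ± 26.7 CPM in ROBO1pos against 7.25 ± 1.47, which checks the labels. Epithelial markers were present in both populations, with EPCAM at 680 ± 22.9 and 303 ± 12.8 CPM, KRT8 at 2165 ± 190 and 3755 ± 491 and KRT18 at 2343 ± 231 and 4095 ± 424, while KRT20 had 0 counts in all libraries. The 19 markers of blood, endothelial, stromal and liver cells together made up 20.2 to 24.9 CPM in ROBO1pos and 21.4 to 32.6 CPM in ROBO1neg, ranges that overlap. Single markers differed in both directions: COL1A1 averaged 4.87 ± 0.702 CPM over ROBO1pos libraries against 14.3 ± 2.65, ALB 5.28 ± 1.06 against 0.147 ± 0.0581, and LUM 3.73 ± 1.79 against 0.0309 ± 0.0428. Without COL1A1, the highest of the list, the sum was 16 to 19.15 CPM in ROBO1pos and 9.49 to 15.1 in ROBO1neg, ranges that do not overlap, and the part of such cells in the results was not tested. PTPRC had 6 counts over all ROBO1pos libraries and 0 in ROBO1neg, PECAM1 had 3 and 1, and HBB had 0 in all libraries. In bulk RNA, fewer cells that express a gene and less of its RNA per cell cannot be told apart.

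The sequences before the start sites of the 4 members with the largest differences, KLF2, KLF4, KLF6 and KLF9, are shown with those of KLF5, which differed in the other direction. Each is the 250 bases before a RefSeq start on GRCh38.p14, read 5′ to 3′ on the gene's strand, with GC boxes (GGGCGG on either strand), a sequence that Kruppel-like and SP factors can bind, in capitals. The RefSeq table held 16 starts for 8 of the 10 members, and KLF3 and KLF10 had no entry.
KLF2 (chr19:16324576-16324825, plus strand): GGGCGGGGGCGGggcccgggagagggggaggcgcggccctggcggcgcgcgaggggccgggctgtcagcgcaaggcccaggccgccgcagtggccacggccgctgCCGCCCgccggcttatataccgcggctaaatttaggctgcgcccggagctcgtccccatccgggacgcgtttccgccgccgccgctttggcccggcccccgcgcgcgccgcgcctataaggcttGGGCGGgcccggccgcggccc
KLF4 (chr9:107489770-107490019, minus strand): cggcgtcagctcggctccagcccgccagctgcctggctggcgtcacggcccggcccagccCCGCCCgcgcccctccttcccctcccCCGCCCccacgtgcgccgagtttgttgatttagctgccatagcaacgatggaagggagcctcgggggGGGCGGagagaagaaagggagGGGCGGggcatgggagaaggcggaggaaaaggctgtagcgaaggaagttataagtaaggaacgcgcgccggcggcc
KLF6 (chr10:3785210-3785459, minus strand): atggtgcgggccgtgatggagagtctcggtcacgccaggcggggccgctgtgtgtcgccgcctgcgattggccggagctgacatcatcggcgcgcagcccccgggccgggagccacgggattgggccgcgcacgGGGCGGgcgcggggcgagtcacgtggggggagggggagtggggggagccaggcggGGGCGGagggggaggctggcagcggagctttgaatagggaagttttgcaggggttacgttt
KLF9 (chr9:70414658-70414907, minus strand): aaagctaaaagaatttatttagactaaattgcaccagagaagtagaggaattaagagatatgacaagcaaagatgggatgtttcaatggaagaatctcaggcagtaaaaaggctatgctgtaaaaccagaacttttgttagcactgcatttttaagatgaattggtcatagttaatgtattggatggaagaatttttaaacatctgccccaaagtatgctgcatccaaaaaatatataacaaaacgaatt
KLF5, upstream start (chr13:73054726-73054975, plus strand): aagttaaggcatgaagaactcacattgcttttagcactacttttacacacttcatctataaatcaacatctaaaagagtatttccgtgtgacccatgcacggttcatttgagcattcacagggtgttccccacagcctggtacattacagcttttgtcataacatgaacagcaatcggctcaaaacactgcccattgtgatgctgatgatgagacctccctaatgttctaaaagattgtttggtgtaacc
KLF5, downstream start (chr13:73058755-73059004, plus strand): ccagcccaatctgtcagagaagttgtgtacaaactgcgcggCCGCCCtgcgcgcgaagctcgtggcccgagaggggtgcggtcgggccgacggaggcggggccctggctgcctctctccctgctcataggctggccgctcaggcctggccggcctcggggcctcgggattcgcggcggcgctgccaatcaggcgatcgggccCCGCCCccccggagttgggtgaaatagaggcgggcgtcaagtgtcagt
GC boxes were found in 42.6% of the 35114 promoter windows of that length in the table, and in 8 of the 16 windows of the members. KLF2 and KLF4 have 4 matches each and KLF6 has 2, in windows whose G and C content was 80%, 69.2% and 72.4%. The KLF9 window has 0 matches and a G and C content of 32.4%. The upstream KLF5 window also has 0, with a content of 40.8%, and the downstream one has 2 and a content of 70.8%. Among the members higher in ROBO1neg, windows with and without a GC box thus both occurred. CACCC boxes (CACCC on either strand, which may overlap a GC box by some letters) were in 54.7% of all windows and in 7 of the 16 of the members, and in none of those of KLF2, KLF4, KLF6 and KLF9. These matches describe letters, and binding was not measured. The counts do not separate the starts of a gene.

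All 10 members passed the filter on low counts. Of these, 5 were higher in ROBO1neg (KLF2, KLF4, KLF6, KLF9 and KLF12), 2 were higher in ROBO1pos (KLF3 and KLF5), and 3 (KLF7, KLF10 and KLF11) did not pass the test. The share called, 70%, lies below the background of 82.0% of all tested genes, with 40.4% of all genes higher in ROBO1neg and 41.6% higher in ROBO1pos, so the count of calls is no result about the family. For these 7 members every library of a group lay to the same side of every library of the other, against 71.9% of all tested genes. Differences of at least 4-fold were found for 4 of the 10 members, all higher in ROBO1neg, against 14.4% of all tested genes. In a test against 1.5-fold, 1 member (KLF3) passed as higher in ROBO1pos and 5 as higher in ROBO1neg, against 41.8% of all tested genes. The median absolute log2 fold change was 1.21 over the members and 0.58 over all tested genes, and the signed medians were -0.91 and 0.019. Each class by N terminus held at least 1 member that passed the test.

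**Figure D1:**
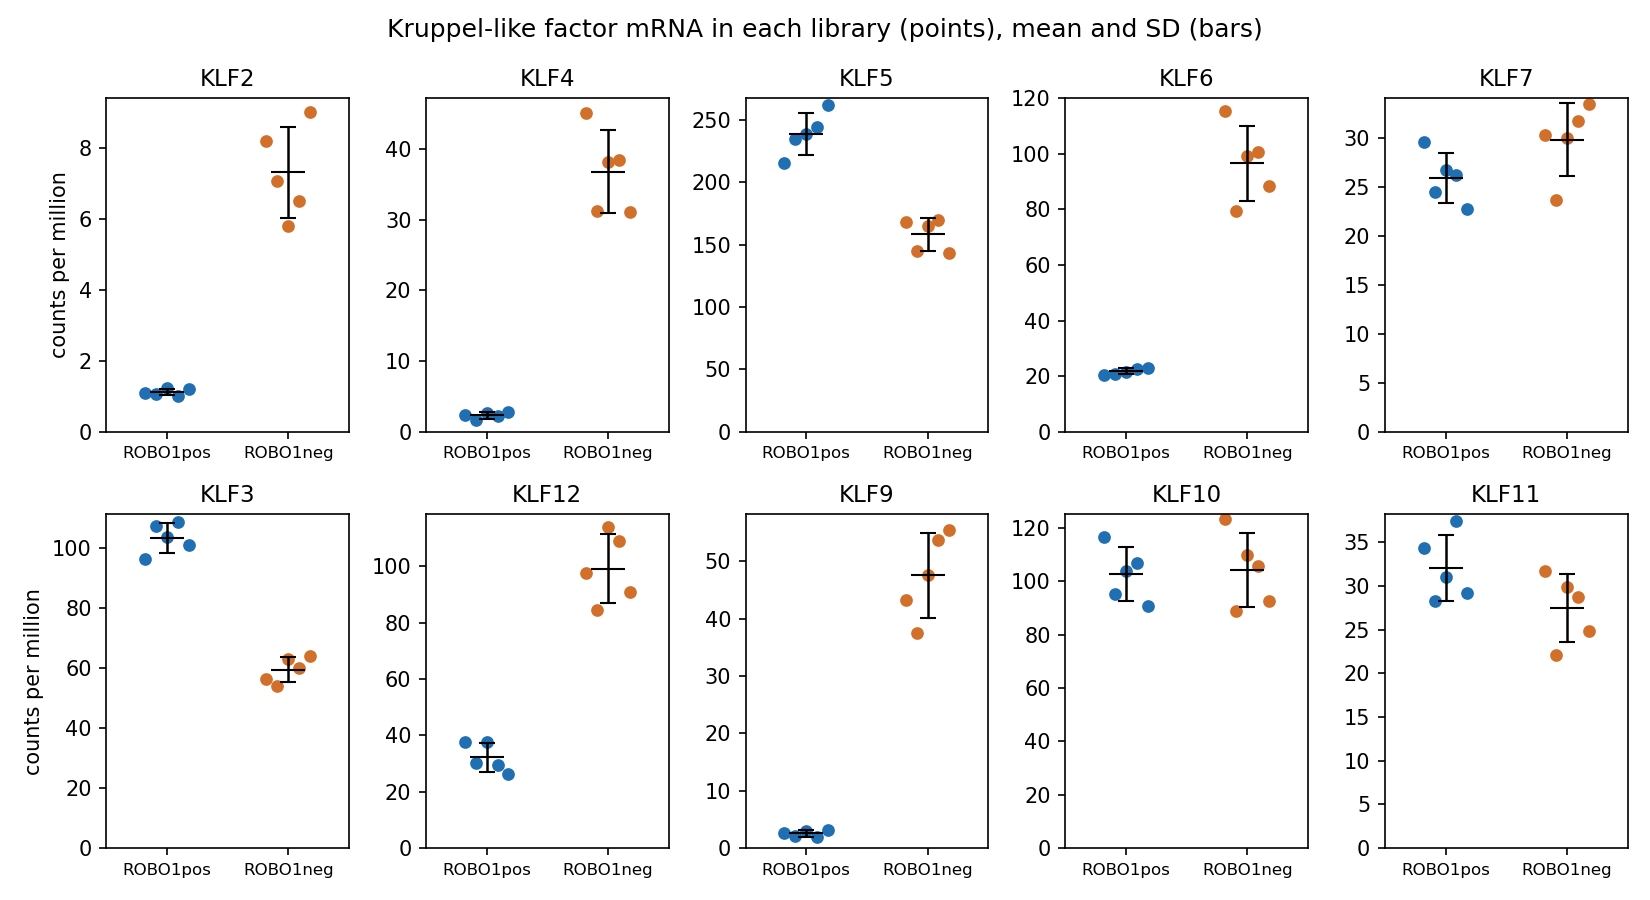
Level of each member in CPM, with 1 point per library, the horizontal mark at the mean and bars of 1 SD (5 libraries per group, each panel with its own axis from 0). KLF2, KLF4, KLF6, KLF9 and KLF12 lie higher in all ROBO1neg libraries, KLF3 and KLF5 lie higher in all ROBO1pos libraries, and the groups overlap for KLF7, KLF10 and KLF11.

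KLF4, which restrains division in gut epithelium, was among the members that differed most. The libraries of ROBO1pos held 2.32, 1.59, 2.64, 2.26 and 2.84 CPM of KLF4 (replicates 1 to 5) and those of ROBO1neg 45.1, 31.3, 38.15, 38.5 and 31.05. Every ROBO1neg library lay more than 10-fold above every ROBO1pos library. Its fitted log2 fold change was -3.98 (SE 0.14, edgeR adjusted p = 8.5e-12), or 15.8-fold higher in ROBO1neg. KLF4 lies on chromosome 9 from 107484852 to 107489769 (GRCh38.p14).

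KLF2, known best as a flow-responsive factor of endothelial cells and a regulator of lymphocyte quiescence, was the member of lowest count. ROBO1pos libraries held 1.1, 1.1, 1.2, 1.0 and 1.2 CPM of KLF2 and ROBO1neg libraries 8.2, 7.1, 5.8, 6.5 and 9.0. It was low in all ROBO1pos libraries, which did not overlap the others, and the log2 fold change was -2.71 (SE 0.15, edgeR adjusted p = 5.4e-10), or 6.52-fold higher in ROBO1neg. The endothelial markers PECAM1 and CDH5 had 1 and 6 counts over all ROBO1neg libraries, and VWF was at 3.20 ± 0.882 CPM there and 0.450 ± 0.140 in ROBO1pos. Reads may be shared with its 4 annotated pseudogenes, so its level is uncertain to that extent, as are those of KLF3, KLF4 and KLF7 (2, 1 and 1 pseudogenes). KLF2 lies on chromosome 19 from 16324826 to 16328685.

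KLF6, a widely expressed factor with a growth-restraining role in several tumours, was at 20.4, 20.9, 21.6, 22.7 and 23.01 CPM in ROBO1pos and at 115, 79.3, 99.2, 101 and 88.4 CPM in ROBO1neg. ROBO1pos libraries lay close together, with a coefficient of variation (CV) of 5.17%, against 14.1% in ROBO1neg. The groups did not overlap, and KLF6 was 4.44-fold higher in ROBO1neg (edgeR log2 fold change -2.15, SE 0.087, adjusted p = 2.5e-11). It lies on chromosome 10 from 3775996 to 3785209.

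KLF5, the crypt factor that promotes division, went the other way and differed less. ROBO1pos libraries held 215, 234, 239, 244 and 261.5 CPM of KLF5 and ROBO1neg libraries 168, 144, 165, 170 and 143. The lowest ROBO1pos library stood above the highest ROBO1neg library. The log2 fold change was 0.59 (SE 0.063, edgeR adjusted p = 7.3e-07), or 1.51-fold higher in ROBO1pos. KLF5 did not pass a test against a difference of 1.5-fold (edgeR glmTreat adjusted p = 0.433). It lies on chromosome 13 from 73054976 to 73077538.

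KLF7, studied mainly in neurons and fat cells, was at 29.6, 24.5, 26.7, 26.2 and 22.8 CPM in ROBO1pos and 30.3, 23.6, 29.99, 31.7 and 33.5 CPM in ROBO1neg. The groups overlapped, and ROBO1neg replicate 2 stood below 4 of the 5 ROBO1pos libraries. The log2 fold change of KLF7 was -0.20 (95% interval -0.40 to -0.0061, edgeR adjusted p = 0.054). This value sat at the threshold: KLF7 passed without ROBO1neg replicate 2 (adjusted p = 0.0034) and without ROBO1pos replicate 1 (adjusted p = 0.019). KLF7 also passed with a term for replicate number in the fit (edgeR adjusted p = 0.039).

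Of the CTBP-recruiting members, KLF3 and KLF12 differed in opposite directions. KLF3, a repressor of broad expression, was at 96.2, 107, 103, 108 and 101 CPM in ROBO1pos and 56.1, 54.0, 62.85, 60.1 and 63.9 CPM in ROBO1neg. All ROBO1pos libraries were above all ROBO1neg libraries. KLF3 was 1.74-fold higher in ROBO1pos (edgeR log2 fold change 0.80, SE 0.053, adjusted p = 4.8e-09). KLF3-AS1, an antisense transcript that overlaps the first bases of KLF3, was at 3.54 ± 0.619 CPM in ROBO1pos against 1.30 ± 0.294, and whether counting used strand is not stated. Without strand, reads of the 2 cannot be told apart where they overlap. KLF3 lies on chromosome 4 from 38664199 to 38701517.

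KLF12, first described as a repressor of the AP-2 alpha gene, was at 37.7, 30.2, 37.6, 29.4 and 26.2 CPM in ROBO1pos and 97.7, 84.5, 114, 109 and 90.8 CPM in ROBO1neg. The lowest ROBO1neg library was well above the highest ROBO1pos library. KLF12 was 3.08-fold higher in ROBO1neg (edgeR log2 fold change -1.62, SE 0.11, adjusted p = 4.3e-09). It lies on chromosome 13 from 73686089 to 74306045, on the same chromosome as KLF5, which differed in the other direction.

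Of the SIN3A-recruiting members, KLF9 differed and KLF10 and KLF11 did not pass. KLF9, a gene induced by glucocorticoid and thyroid hormone in many tissues, was at 2.63, 2.11, 2.87, 1.86 and 3.16 CPM in ROBO1pos and 43.2, 37.5, 47.7, 53.8 and 55.5 CPM in ROBO1neg. All ROBO1neg libraries were far above all ROBO1pos libraries, and the fold change was the largest of the 10 members. KLF9 was 18.8-fold higher in ROBO1neg (edgeR log2 fold change -4.23, SE 0.14, adjusted p = 4.8e-12). It lies on chromosome 9 from 70384604 to 70414657. In absolute log2 fold change KLF9 stood at the 94.9th percentile of all tested genes and KLF4 at the 94.35th.

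KLF10 and KLF11 are early genes of the TGF-beta response. KLF10 was at 116.5, 95.25, 104, 107 and 90.6 CPM in ROBO1pos and 123, 88.8, 110, 106 and 92.7 CPM in ROBO1neg. The ROBO1pos values lay within the range of ROBO1neg, and the log2 fold change of -0.022 had a 95% interval from -0.21 to 0.17 (edgeR adjusted p = 0.82), so a difference above 1.5-fold lies outside it. KLF11 was at 34.4, 28.2, 31.0, 37.5 and 29.25 CPM in ROBO1pos and 31.7, 22.1, 29.9, 28.8 and 24.9 CPM in ROBO1neg. These groups overlapped as well, and its log2 fold change was 0.22 (95% interval 0.0048 to 0.44, edgeR adjusted p = 0.055). KLF11 sat at the threshold and passed without ROBO1pos replicate 2 (adjusted p = 0.032), ROBO1pos replicate 5 (0.040), ROBO1neg replicate 1 (0.025) or ROBO1neg replicate 3 (0.048). KLF11 also passed with a term for replicate number in the fit (edgeR adjusted p = 0.0051), a pairing that the labels do not state. KLF10 lies on chromosome 8 from 102648784 to 102655725, KLF11 on chromosome 2 from 10043550 to 10054836 and KLF7 on chromosome 2 from 207074137 to 207173851.

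Levels between genes can be compared only per length, for which CPM was divided by the merged exon length of each gene in GENCODE 29, as CPM per kb. This order describes the annotation as well as the RNA, since a gene's longest exons may not be used in these cells. KLF5 was first in both populations, at 61.3 CPM per kb in ROBO1pos and 40.6 in ROBO1neg, and KLF10 second, at 25.6 and 26.03. In ROBO1pos KLF3 (16.4), KLF11 (6.99), KLF6 (3.54), KLF12 (2.95) and KLF7 (2.80) followed, and the last 3 were KLF4 (0.637), KLF2 (0.555) and KLF9 (0.488 CPM per kb). Ranges over libraries overlapped between KLF6 and KLF12, between KLF12 and KLF7, and between neighbours among the last 3. In ROBO1neg KLF6 came next at 15.7 CPM per kb, before KLF4 (10.1), KLF3 (9.43), KLF9 (9.19) and KLF12 (9.08), whose neighbours in the order overlapped, and KLF11 (5.99), KLF2 (3.63) and KLF7 (3.22) came last, with overlap between KLF2 and KLF7. KLF4 thus was among the last 3 in ROBO1pos and came directly after KLF6 in ROBO1neg.

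Ratios of counts within a library do not depend on how libraries are scaled, and 4 were compared with a two-sided permutation test that was exact (all assignments of the 10 libraries), with p adjusted over the 4. KLF4 counts were 0.680% to 1.10% of KLF5 counts in ROBO1pos libraries and 21.7% to 26.8% in ROBO1neg libraries, a difference in mean log2 ratio of -4.59. KLF12 counts were 10.0% to 17.5% of KLF5 counts in ROBO1pos and 58.0% to 69.1% in ROBO1neg, a difference of -2.22. The ratio of KLF3 to KLF12, which share a co-repressor, was 2.55 to 3.85 in ROBO1pos and 0.551 to 0.704 in ROBO1neg. The difference in mean log2 ratio was 2.43. The ratio of KLF10 to KLF11 differed by far less, at 2.85 to 3.39 in ROBO1pos and 3.68 to 4.02 in ROBO1neg, a difference of -0.25. Its groups did not overlap, although neither gene passed the test alone. Each of the 4 had an exact permutation p of 0.00794 (adjusted 0.00794), the smallest that 5 against 5 libraries can give. For KLF4 to KLF5, KLF12 to KLF5 and KLF3 to KLF12 this outcome was fixed by the levels given above. In each of these pairs both genes had groups that did not overlap and differed in opposite directions. Their p-values thus add nothing to the calls of the genes. With all 4 ratios tied at the smallest value, the adjustment changed nothing. The permutation p of 0.00794 for KLF10 to KLF11 is therefore in effect unadjusted.

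**Figure D2:**
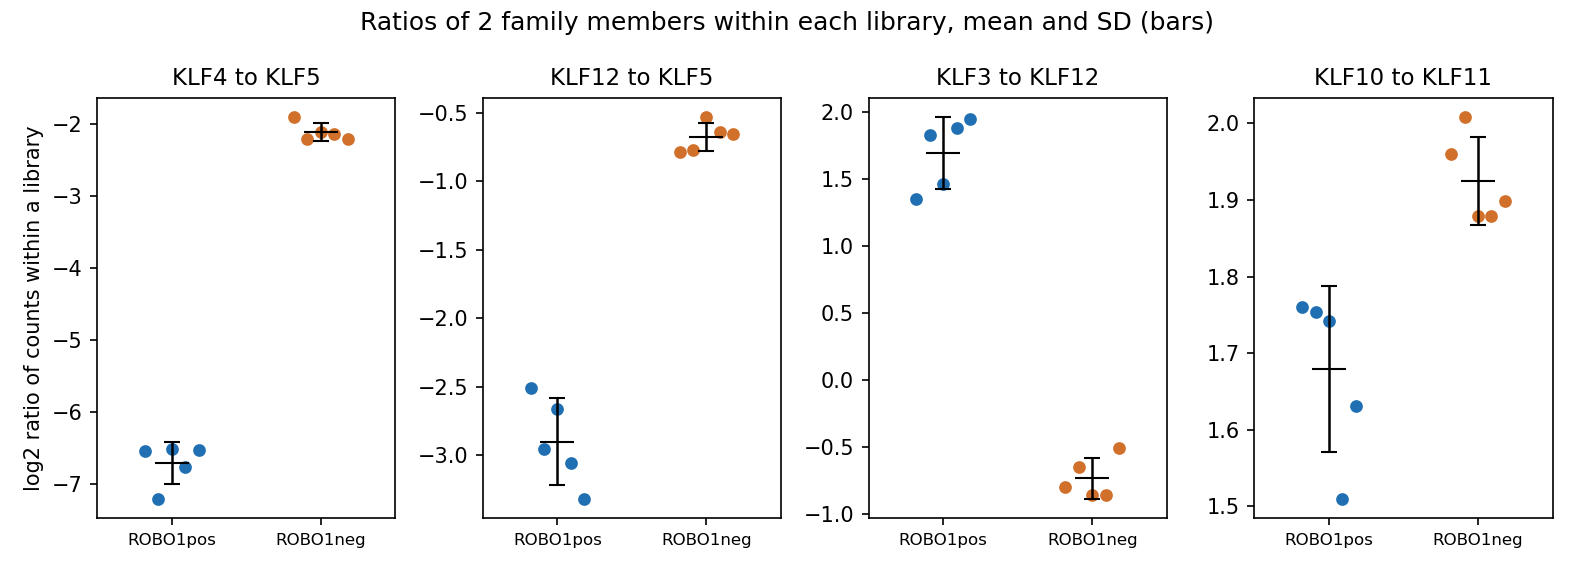
Log2 ratio of the counts of 2 members within each library (points), with mean and bars of 1 SD for 5 libraries per group and a separate vertical axis per panel. In each of the 4 panels the groups do not overlap, with a difference in means of -4.59 for KLF4 to KLF5 and of -0.25 for KLF10 to KLF11.

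Within a population the members varied by a CV of 4.78% (KLF3) to 21.2% (KLF9) in ROBO1pos and of 7.18% (KLF3) to 17.6% (KLF2) in ROBO1neg. ROBO1neg replicate 2 was the lowest of its group for 7 of the 10 members and the highest for 0. ROBO1neg replicates 1 and 5 were each the highest for 4. In ROBO1pos, replicates 1 and 5 were each the lowest for 3 members, and replicate 5 was the highest for 4. No library stood apart by Dixon's test in any of the 28 groups of 5 values checked, which were the 10 members and 4 ratios in each population. Without ROBO1neg replicate 2, log2 fold changes of the 7 called members kept their direction and their call, as they did without each of the other libraries.

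The genes around each member gave another comparison. For each member a median was taken over the log2 fold changes of 20 tested genes on each side along the chromosome (29 genes in all for KLF6, near the chromosome's end). Around KLF2 the neighbours were higher in ROBO1pos, with a median of 0.60, while KLF2 was higher in ROBO1neg, and the log2 fold change of KLF2 relative to them was -3.31. The neighbours of KLF5 and KLF12 had medians of -0.34 and -0.32, relative to which KLF5 was at 0.94 and KLF12 at -1.30. On chromosome 13, KLF5 ends at 73077538 and KLF12 starts at 73686089. Their neighbours can thus be largely the same genes, and these medians are not separate comparisons. Around KLF4 and KLF9, both on chromosome 9, the medians were -0.51 and -0.62, and the values relative to them were -3.47 and -3.61. KLF6 had a median of 0.015 beside it and stayed at -2.17, and KLF3 one of 0.18 and was at 0.62. All 7 remained called with the neighbours' median removed (edgeR estimates and SEs, Benjamini-Hochberg adjusted p from 2.7e-11 for KLF9 to 9.3e-08 for KLF3). The SE was that of the member alone and the median was taken as fixed. The spread of the neighbours therefore does not enter these p-values. The -0.20 of KLF7 matched the -0.20 of its neighbours and became 0.00054 (adjusted p = 0.996). KLF10 became 0.083 (adjusted p = 0.394) and KLF11 0.099 (adjusted p = 0.378). Copy number was not measured, and its part in these values was not tested.

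**Figure D3:**
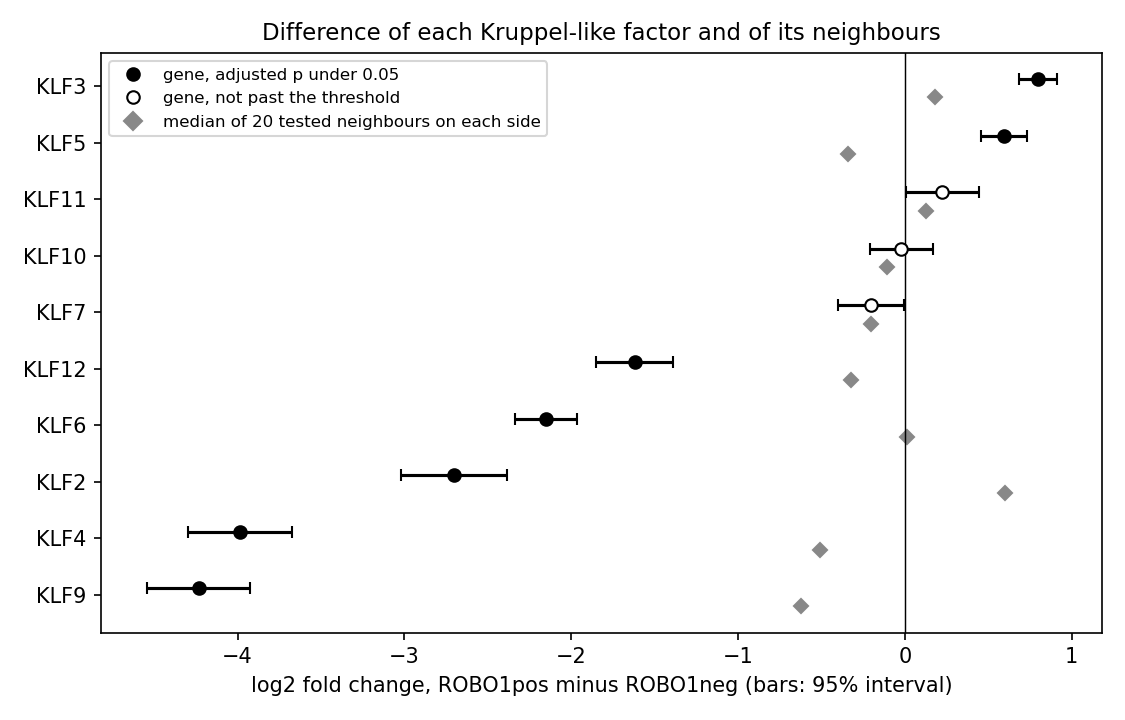
Log2 fold change of each member (circles, ROBO1pos minus ROBO1neg, bars of the 95% interval) beside the median of its neighbouring tested genes (diamonds). KLF9 and KLF4 lie furthest to the left at -4.23 and -3.98, whereas the medians of the neighbours span -0.62 to 0.60.

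The other KLF and SP factors, which share the zinc finger structure, divided between the populations. Of 16 listed, 14 were tested, with 7 calls in ROBO1pos, 6 in ROBO1neg and 1 gene that did not pass (median log2 fold change 0.22). KLF17 had 0 counts in all libraries and KLF1 23 and 14 counts over ROBO1pos and ROBO1neg, too few to be tested. SP4 was at 69.9 ± 4.40 CPM in ROBO1pos against 25.7 ± 1.66 (log2 fold change 1.44, SE 0.057, edgeR adjusted p = 1.9e-11), and SP8, a developmental factor, at 6.39 ± 2.90 against 0.0720 ± 0.0904 CPM. SP3, which binds the same GC boxes as SP1, was higher in ROBO1neg at 199 ± 6.56 against 125 ± 4.34 CPM, and KLF15, a metabolic regulator, at 7.37 ± 0.592 against 2.54 ± 0.490 CPM. KLF8, the remaining CTBP-binding factor of the family and named here after its values were seen, was at 1.81 ± 0.403 CPM in ROBO1pos against 0.431 ± 0.336.

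Co-regulators and ubiquitin ligases of the family were called in both directions. All 15 were tested, with 8 calls in ROBO1pos, 5 in ROBO1neg and 2 genes that did not pass (median log2 fold change 0.11). The co-repressor CTBP2 was at 163 ± 4.65 CPM in ROBO1pos against 91.6 ± 3.23, SIN3B at 79.1 ± 5.46 against 46.5 ± 3.03, and the histone deacetylase HDAC2 at 265 ± 6.53 against 155 ± 3.70. The acetyltransferase KAT2B was higher in ROBO1neg at 26.7 ± 3.98 CPM against 6.70 ± 1.33 (log2 fold change -1.99, SE 0.13, edgeR adjusted p = 4.7e-09).

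Among genes upstream of the family, 8 of 14 tested were higher in ROBO1neg, 5 in ROBO1pos, and 1 did not pass (median log2 fold change -0.26). MAPK7 (ERK5), a kinase that induces KLF2 and KLF4 through MEF2 factors, was at 24.4 ± 0.998 CPM in ROBO1neg against 11.4 ± 0.728. On the same route, the kinase MAP2K5 that activates MAPK7 was higher in ROBO1pos (33.2 ± 2.64 against 20.7 ± 1.44 CPM), as was MEF2A (73.3 ± 4.16 against 60.9 ± 1.13), while MEF2D was higher in ROBO1neg (45.1 ± 2.86 against 36.1 ± 1.49). The kinases MAP3K2 (118.1 ± 8.25 against 79.1 ± 6.66 CPM) and MAP3K3 (53.5 ± 2.97 against 29.1 ± 2.24) of this route were also higher in ROBO1neg. MEF2C had 24 counts over all ROBO1pos libraries and 2 over ROBO1neg. NR3C1, the glucocorticoid receptor that induces KLF9, was at 18.6 ± 1.45 against 5.14 ± 0.767 CPM, and the TGF-beta receptor TGFBR2 at 103.5 ± 9.88 against 33.3 ± 4.25. ELF3, an epithelial ETS factor, was higher in ROBO1pos, 69.3 ± 4.22 CPM against 27.1 ± 1.503 in ROBO1neg.

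Responses that share inducers with members were compared beside them. Of 10 TGF-beta early-response genes, 6 were higher in ROBO1neg and 3 in ROBO1pos, with 1 that did not pass (median -0.44), while KLF10 and KLF11 of the same response did not pass. Higher in ROBO1neg were PMEPA1, at 136 ± 13.3 against 8.71 ± 1.41 CPM, and the inhibitory SMAD7, at 39.0 ± 2.98 against 6.74 ± 1.26, whereas ID1 was at 35.5 ± 2.56 CPM in ROBO1pos against 4.22 ± 0.928. Whether TGF-beta raises or lowers each of these genes, ID1 among them, in this line was not tested. The 7 tested glucocorticoid-responsive genes gave 3 calls in ROBO1neg, 2 in ROBO1pos and 2 genes that did not pass (median -0.22). TSC22D3 was at 23.6 ± 4.14 against 5.54 ± 1.45 CPM, ERRFI1 at 45.6 ± 8.26 against 21.1 ± 1.35 and SGK1 at 17.7 ± 8.89 against 4.72 ± 1.203, each higher in ROBO1neg as KLF9 was, while PER1 was at 20.85 ± 1.35 CPM in ROBO1neg against 24.3 ± 1.35. FKBP5, the highest of the list, was also higher in ROBO1pos (60.2 ± 4.88 against 54.4 ± 3.22 CPM, with groups that overlap). DUSP1 and CRISPLD2 did not pass.

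Several members, KLF2, KLF4, KLF6 and KLF10 among them, are known to be induced rapidly by serum or by cell handling, so a list of 26 immediate-early and handling-response genes was read beside them. Of 25 tested, 10 were called in each direction and 5 were not, at a median log2 fold change of 0.018, beside 0.019 for all tested genes. The summed level of the list was 4990 to 5858 CPM in ROBO1pos and 4370 to 4972 in ROBO1neg, and its largest part was the chaperone HSPA8 (3520 ± 422 and 2641 ± 140 CPM). Without HSPA8 the ranges overlapped, at 1634 to 2211 CPM in ROBO1pos and 1791 to 2360 in ROBO1neg. IER5 was at 176 ± 7.06 CPM in ROBO1neg against 15.4 ± 2.27, SOCS3 at 18.2 ± 2.64 against 1.43 ± 0.372 and FOSL1 at 71.9 ± 12.7 against 16.7 ± 3.75, whereas NR4A2 was at 15.8 ± 1.81 CPM in ROBO1pos against 2.01 ± 0.401. EGR1, named after its values were seen, was at 578 ± 114 CPM in ROBO1pos against 525 ± 119 (edgeR adjusted p = 0.404). FOS and JUNB, named in the same way, did differ. FOS was higher in ROBO1neg, at 311 ± 56.0 CPM against 128.5 ± 24.6, and JUNB was higher in ROBO1pos, at 147 ± 28.4 CPM against 66.6 ± 9.77. The part of sorting and handling in the levels of the members was not tested.

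Of 25 genes reported as targets of family members in other systems, 17 were tested. Their calls were 11 in ROBO1neg and 2 in ROBO1pos, 4 did not pass, and the median log2 fold change was -0.55. For this and every other list, the background is 40.4% of all tested genes higher in ROBO1neg and 41.6% in ROBO1pos. The lists were chosen with earlier results known, so such counts do not test whether targets follow the members. CCND1, which encodes cyclin D1 and has been reported as activated by KLF5 and repressed by KLF4, was at 3580 ± 455 CPM in ROBO1neg against 405 ± 36.2. EGFR, reported as a KLF5 target in epithelium, was at 91.0 ± 16.6 CPM in ROBO1neg against 1.37 ± 0.435 (log2 fold change -6.06, SE 0.19, edgeR adjusted p = 1.9e-12), while KLF5 itself was higher in ROBO1pos. LGALS3, which encodes galectin 3, was at 209 ± 13.9 against 58.9 ± 4.70 CPM. CDKN1A, which encodes the cell cycle inhibitor p21, a target of KLF4 and KLF6, was at 92.95 ± 3.54 CPM in ROBO1neg against 16.01 ± 3.62 and was named after its values were seen. CDKN1B, which encodes p27, was higher in ROBO1pos at 106 ± 2.96 against 91.2 ± 3.36 CPM. Of the same list, CCNE1 (12.58 ± 1.68 CPM in ROBO1pos against 12.62 ± 1.01) and CCNB1 (174 ± 13.4 against 159 ± 8.96) did not pass. BIRC5 was higher in ROBO1neg at 102 ± 7.64 against 82.4 ± 6.84 CPM, with groups that overlap. Of targets tied to differentiated tissue, IVL, SPRR1A and SPRR3 had 0 counts in all libraries and were not detectable at this depth, and the enterocyte alkaline phosphatase ALPI had 35 and 20 counts over ROBO1pos and ROBO1neg.

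**Figure D4:**
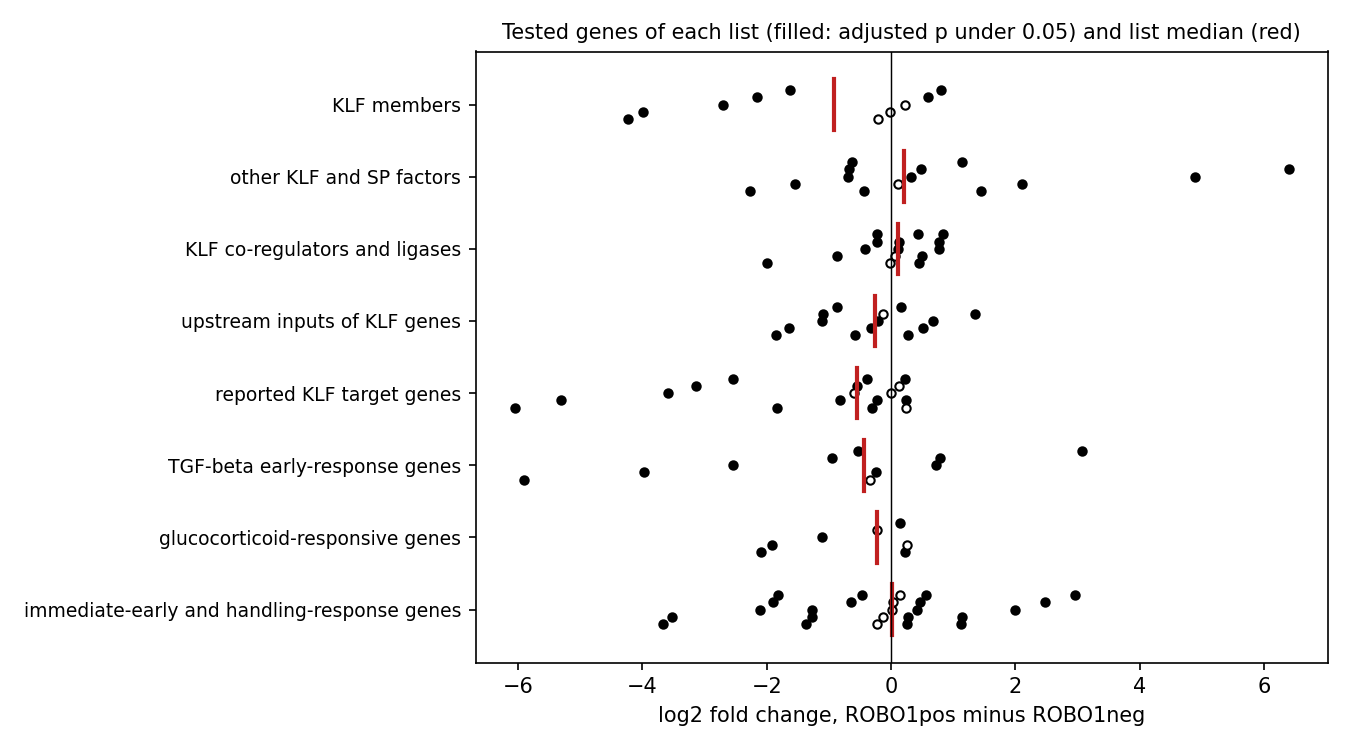
Log2 fold change (ROBO1pos minus ROBO1neg) of each tested gene of 8 lists, filled where the edgeR adjusted p was under 0.05, with the median of each list as a red line. The 10 members have a median of -0.91 and the 25 immediate-early genes one of 0.018, and values to both sides of 0 occur in every list.

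Markers of intestinal epithelial identity differed between the populations alongside the family. The 10 tested gave 5 calls in ROBO1pos, 3 in ROBO1neg and 2 genes that did not pass (median log2 fold change 0.68). VIL1, which encodes villin of the brush border, averaged 503 ± 23.3 CPM over ROBO1pos libraries against 27.7 ± 3.14, and HNF4A, a factor of enterocyte identity, 130 ± 17.7 against 22.03 ± 1.70, both opposite to KLF4. Also higher in ROBO1pos were EPCAM with the values given above, CDH17 (6.94 ± 3.38 against 0.127 ± 0.0813 CPM) and CDX1 (0.744 ± 0.289 against 0.0306 ± 0.0424). The markers higher in ROBO1neg, as KLF4 was, were KRT18 and KRT8 with the values given above and CDH1, which encodes E-cadherin (44.4 ± 9.49 against 34.2 ± 2.41 CPM, with groups that overlap). CDX2 (28.8 ± 7.14 CPM in ROBO1pos against 30.04 ± 7.43) and LGALS4 (0.534 ± 0.147 against 0.461 ± 0.103) did not pass. The 9 tested markers of other cell types gave 4 calls in each direction, and 1 did not pass (median -0.34).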

How the data were processed

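The members and gene lists were chosen with earlier results of these data known. Each library has a deposited table of raw gene counts, whole numbers that the authors did not normalise. Per the labels' protocols, RNA was stored in a phenol reagent and made into stranded libraries of polyadenylated RNA. Per the submitters' processing notes, the tools were DESeq2 1.24.0, SAMtools 1.9, STAR 2.6.0c, bcl2fastq and FastQC, and the build was GRCh38. Not given in the sources used here are the program that counted reads, its annotation and its strand setting. Closing entries with no gene name entered neither library sizes nor tests: reads with no feature (15.8% of reads listed in ROBO1pos, 14.6% in ROBO1neg), aligned to several places (24.6% and 21.2%) and ambiguous (0.860% and 0.833%).

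Counts were analysed with edgeR 4.0.16 in R 4.3.3: filterByExpr, TMM scaling and a quasi-likelihood fit with group as the only term, on 14932 of 26485 genes. Calls have a Benjamini-Hochberg adjusted p under 0.05. SEs come from the coefficient and its F statistic. The fit, DESeq2 1.42.0 and limma 3.58.1 were tested on simulated data. Pairs of libraries within a group had a chi-square of 3.55 to 21.95 per degree of freedom, so none was a duplicate. Pseudogenes named after KLF2, KLF3, KLF4 and KLF7 are annotated (4, 2, 1 and 1), and reads shared with them may not be counted.

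Named genes were all members, ROBO1, up to 4 called genes of each other list by smallest adjusted p, no more than 3 from a direction where both directions had calls, and the 2 highest markers of other cell types. A gene that this rule names is not reported here. KRT8, KRT20, CDH1, CDH17, CDX1, CDX2, LGALS4, LUM, PTPRC, PECAM1, CDH5, HBB, HSPA8, MAP3K2, MAP3K3, MAP2K5, MEF2A, MEF2C, MEF2D, TGFBR1, SMAD2, SMAD3, FKBP5, DUSP1, CRISPLD2, KLF1, KLF8, KLF17, KLF3-AS1, EGR1, FOS, JUNB, CDKN1A, CCNE1, CCNB1, BIRC5, VWF, ALPI, IVL, SPRR1A and SPRR3 were named after their values were seen. CDH1 and DUSP1 each stand in 2 lists. Positions and promoter sequences are from RefSeq for GRCh38.p14, by symbol. The alternatives were RLE, upper quartile and library size scaling, no filter beyond 1 count, 5 CPM in 5 libraries, each library left out, the neighbours' median removed, a block for replicate number, a 1.5-fold threshold test, limma-voom and DESeq2.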

Additional observations from a re-analysis of the deposited data

How the results depend on the processing

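The 7 called members kept their direction in the 20 alternatives run for each, and 6 kept their call in all of them; KLF5 lost it against 1.5-fold. KLF7, at -0.20, was called in 6 alternatives, among them RLE scaling (adjusted p = 0.045), no filter beyond 1 count (0.037), DESeq2 (0.037) and the replicate block (0.039), and turned to 0.00054 with the neighbours' median removed. KLF11 was called in 7, among them upper quartile scaling (adjusted p = 0.018), library size only (0.036) and the replicate block (0.0051). KLF10, never called, changed sign with upper quartile scaling (0.042), the neighbours' median removed (0.083) and without ROBO1pos replicate 2 (0.0011), ROBO1pos replicate 5 (0.015) or ROBO1neg replicate 1 (0.042), with a range of -0.078 to 0.042 over all libraries left out; the cause was not tested.

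Against 1.5-fold, calls over all genes numbered 2938 in ROBO1pos and 3298 in ROBO1neg, together 41.8% of genes, and fewer list genes were called by construction: 1 member higher in ROBO1pos (KLF3), with 5 still higher in ROBO1neg, 8 other KLF and SP factors, 5 co-regulators, 6 upstream genes, 7 targets, 3 glucocorticoid-responsive genes and 13 immediate-early genes. The filter of 5 CPM in 5 libraries left 8 called KLF and SP factors and 1 called marker of other cell types, through fewer genes tested, and no filter beyond 1 count gave 13 of the latter. The other 237 of 249 values of counts stayed within 1.5 times.

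Leaving out each library gave 2 to 3 members higher in ROBO1pos and 5 to 6 in ROBO1neg. The within-library ratio differences then ran from -4.64 to -4.47 (KLF4 to KLF5), -2.32 to -2.12 (KLF12 to KLF5), 2.36 to 2.51 (KLF3 to KLF12) and -0.27 to -0.20 (KLF10 to KLF11). Pairing same-numbered libraries as a replicate block, the sign-flip test of these ratios, at -4.59, -2.22, 2.43 and -0.25, cannot go below its exact p of 0.0625. Same-numbered libraries correlated at 0.062 to 0.169 in their deviations, not all above 0.1, though each correlated best with its own number, a hint from the data only. The block changed no other call of a member. Scaling moved the median log2 fold change of all genes between 0.010 and 0.082.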
